A study of Mus musculus with 8 samples.

Results

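The collagen, laminin and integrin genes of mouse embryonic stem cells were compared across 4 groups, which differ in genotype label and treatment. Members were all genes whose symbol names a collagen chain, a laminin chain, or an integrin alpha or beta chain. They number 81 of the 55573 genes in the count table: 44 collagen genes, 11 laminin chain genes, 18 integrin alpha genes and 8 integrin beta genes. Of these, 69 had enough counts to be tested, and 12 did not: Col3a1, Col4a3, Col4a6, Col6a3, Col9a1, Col10a1, Col24a1, Itga11, Itgad, Itgax, Itgb6 and Itgb8.

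Collagens are triple-helical matrix proteins. The fibrillar types build the banded fibres of connective tissue, and type IV collagen builds the network of the basement membrane, the thin sheet on which epithelia rest. Laminins are heterotrimers of 1 alpha, 1 beta and 1 gamma chain that assemble the other basement membrane network, and the chain that is made decides which isoform is secreted. Integrins pair 1 alpha with 1 beta chain at the cell surface and bind collagen, laminin, fibronectin or other ligands. In the early mouse embryo the extraembryonic endoderm is a rich source of type IV collagen and of the laminin formed by Lama1, Lamb1 and Lamc1.

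All groups were labelled as mouse embryonic stem cells, and each held 2 libraries of polyadenylated RNA. The group mESC was wild type and untreated. The group 2C::GFP+ carried the genotype label 2C::GFP+, a name that refers to a GFP reporter active in 2-cell-like cells, and had no treatment. The group 2C::GFP+/SGC had the same genotype and was given 2 µM SGC0946, an inhibitor of the histone methyltransferase DOT1L, in serum replacement medium (20%) with 10 ng/ml LIF. The group 2C::GFP+/SA was given 2 µM SGC0946 and 2 µM AS8351, a compound described as a KDM5B inhibitor, in the same medium with 10 ng/ml IL6/sIL-6R in place of LIF. Stem cells were kept in N2B27 medium with PD03, CHIR9901 and LIF or in the serum replacement medium with LIF, and the labels do not say which of the media mESC or untreated 2C::GFP+ had. In comparisons with mESC or with untreated 2C::GFP+ the group or treatment and the medium cannot be told apart, and AS8351 and the exchange of cytokines cannot be told apart in 2C::GFP+/SA. The columns used for untreated 2C::GFP+ are named KOSR, an abbreviation of KnockOut serum replacement. They match no sample label and were given to that group by elimination, so each comparison with 2C::GFP+ rests on that assignment. The name may refer to the serum replacement medium, but the labels do not say so. The labels do not say whether replicates were separate cultures, so the p-values measure the spread between these libraries, which may be technical.

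Total counts lay between 12299931 and 145810034 per library, and replicate 1 was 7.46 to 9.62 times deeper than replicate 2 in each group. The stem cell genes Pou5f1 and Nanog were abundant in each library, at 667 to 1057 TPM and 945 to 1141 TPM. By the test described below, 6 of 10 stem cell markers, Pou5f1 among them, were lower in 2C::GFP+/SA than in 2C::GFP+ and 1 was higher. This was 70% called, against 28.7% of all genes tested. Levels below are the authors' TPM, a scale that corrects for gene length and library size, given for replicate 1 and then replicate 2 of each group. Differences, written as a value ± SE, are log2 fold changes from the quasi-likelihood test of edgeR on the deposited counts, in 1 fit over all 8 libraries. A gene was called changed at a Benjamini-Hochberg adjusted p under 0.05 over all 20608 genes tested, and adjusted p below always means this test unless another is named. With 2 libraries against 2, "apart" below means that both libraries of one group lay above both of the other.

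The matrix genes were unequal in level. Group means of at least 10 TPM were reached by 22 members and of at least 1 TPM by 47, while 34 stayed under 1 TPM in each group. The gamma chain Lamc1 was the most abundant member in each library, and it was present at 352 and 375 TPM (mESC), 375 and 384 (2C::GFP+), 384 and 360.2 (2C::GFP+/SGC), then 471 and 497 (2C::GFP+/SA). Col18a1, which encodes a basement membrane collagen with a heparan sulfate chain and the endostatin fragment, led the collagens at 123 and 128 TPM (mESC), 236 and 293 (2C::GFP+), 196 and 236 (2C::GFP+/SGC), then 198 and 289 (2C::GFP+/SA). Itgb1, the shared beta partner of most matrix-binding integrins, led the beta chains at 132 and 139 TPM (mESC), 151 and 159.6 (2C::GFP+), 146 and 156 (2C::GFP+/SGC), then 132 and 146 (2C::GFP+/SA). The classical connective tissue collagen Col3a1 had at most 0.0319 TPM in any library. Col18a1 took 77.8% to 80.2% of summed collagen TPM in mESC and 49.2% to 57.0% in 2C::GFP+/SA.

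**Figure D1:**
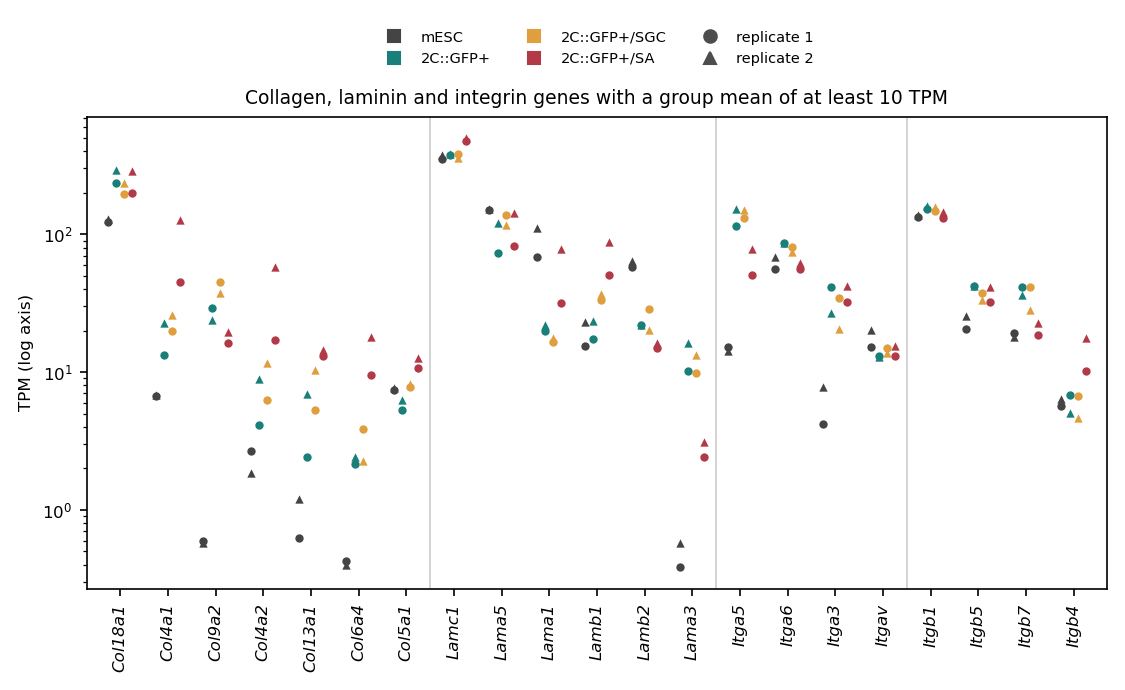
TPM (log axis) of 21 of the 22 members with a group mean of at least 10 TPM, 1 symbol per library, coloured by group, with circles for replicate 1 and triangles for replicate 2. Col9a2, Lama3 and Itga5 in mESC lie far below the other groups, Col4a1 and Col4a2 are highest in 2C::GFP+/SA, and Itgb1 and Lamc1 lie within narrow bands.

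Col4a1 and Col4a2 encode the chains of the main type IV collagen, and their genes start head to head on mouse chromosome 8. In GENCODE M21 (GRCm38) Col4a1 covers chromosome 8, 11198423 to 11312826 on the minus strand and Col4a2 covers chromosome 8, 11312805 to 11449287 on the plus strand. Their annotated starts overlap by 22 bases at chr8:11312805-11312826, which are shown because the 2 genes share them and rose together in 2C::GFP+/SA. The letters are those of the plus strand, and 72.7% of them are G or C.

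Col4a1 and Col4a2 shared start: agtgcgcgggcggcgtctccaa

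Promoter windows of RefSeq (GRCm38.p6) were found for 58 of the 81 members. Shown next are the 150 bases before the start of 4 members that overlap no annotated exon: Itga5 changed in 3 comparisons, Itgb1 is its beta partner and was called in none, and the collagens Col5a1 and Col13a1 rose in 2C::GFP+/SA. Each is written in the direction of transcription and ends at the base before the start. Capitals mark the GC box (GGGCGG or its reverse complement CCGCCC) and the TEAD motif (GGAATG or its reverse complement CATTCC), and Col13a1 holds no match in the bases shown.

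Itga5, chr15:103366792-103366941, minus strand: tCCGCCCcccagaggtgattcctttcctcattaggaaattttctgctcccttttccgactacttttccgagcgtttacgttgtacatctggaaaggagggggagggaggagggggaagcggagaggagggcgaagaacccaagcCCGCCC

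Itgb1, chr8:128685504-128685653, plus strand: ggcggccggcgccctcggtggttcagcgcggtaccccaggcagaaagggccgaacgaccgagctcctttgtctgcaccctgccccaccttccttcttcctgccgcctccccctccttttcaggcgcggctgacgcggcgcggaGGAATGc

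Col5a1, chr2:27886275-27886424, plus strand: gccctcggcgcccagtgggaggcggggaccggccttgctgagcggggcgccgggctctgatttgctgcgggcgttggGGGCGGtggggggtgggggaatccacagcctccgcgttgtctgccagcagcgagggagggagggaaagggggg

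Col13a1, chr10:61979109-61979258, minus strand: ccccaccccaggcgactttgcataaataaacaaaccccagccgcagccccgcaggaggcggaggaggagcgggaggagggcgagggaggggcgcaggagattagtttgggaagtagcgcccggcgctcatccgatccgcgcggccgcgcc

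Both strands of the 250 bases before each start were searched. The GC box was present in 48.4% of the 64 member windows and in 32.7% of all 32851 windows. Other motifs searched were the TATA box (TATAAA, 7.81% against 12.4%), the CCAAT box (CCAAT, 26.6% against 33.8%), a GATA motif (AGATAA, 4.69% against 9.99%), an AP-1 motif (TGANTCA, 3.12% against 6.75%) and the TEAD motif (10.9% against 12.6%). The E-box CACGTG stood in 0 member windows and in 6.02% of all. Member windows had a median GC content of 58.6%, and all windows had 52.4%. These matches describe letters in the windows and were not set against the expression values.

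Untreated 2C::GFP+ cells held more RNA of many collagens and of several integrins than mESC, and less of 4 laminin chains. Of the 69 members tested, 21 were higher and 7 lower (40.6% called), against 24.3% of all genes tested (15.2% higher and 9.12% lower). The median log2 fold change was 0.71 over the members and 0.04 over all genes tested. Among members of at least 10 TPM, Col9a2 and Lama3 rose 44.2-fold and 28.5-fold, and Itga5 rose 8.93-fold. Of the 28 calls, 15 held under each of the 16 alternative analyses. For member counts under an alternative, here and below, no share of all genes is given, so they show only how the counts moved. With a library left out, 4 members were called lower without 2C::GFP+ replicate 1 and 4 without mESC replicate 2.

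No member was called between the SGC0946-treated and the untreated 2C::GFP+ libraries. In 2C::GFP+/SGC against 2C::GFP+, edgeR called 0 of the 69 members, where 0% of the 20608 genes were called, while 17 members and 2037 of all genes had an unadjusted p under 0.05. DESeq2 called 2 members higher, Itga2b and Col22a1, and its share over all genes is not given here. The fitted values leaned upward: 55 of 69 members (79.7%) were above 0, with a median of 0.58, against 53.2% of all genes tested and a median of 0.03. The smallest adjusted p of a member belonged to Itga2b (log2 fold change 1.80 ± 0.35, adjusted p = 0.145), and Lamb1 had 0.67 ± 0.18, adjusted p = 0.271.

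Many members were also called between 2C::GFP+/SA and untreated 2C::GFP+. In 2C::GFP+/SA against 2C::GFP+, 25 members were higher and 6 lower (44.9% called), against 28.7% of all genes tested (14.9% higher and 13.8% lower). The median log2 fold change of the members was 1.15, against 0.01 over all genes tested. Col4a1, Col4a2, Lama1, Lamb1, Lamb3, Itga8, Itga2b and 5 of 9 tested fibrillar collagen genes rose, and Itga5, Lama3 and the fibrillar gene Col5a3 fell. Of the 31 calls, 13 held under each alternative. Without 2C::GFP+ replicate 1 the counts were 12 higher and 3 lower.

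Against 2C::GFP+/SGC, which shares SGC0946, 14 members were higher and 5 lower in 2C::GFP+/SA (27.5% called), against 16.1% of all genes tested (7.92% higher and 8.18% lower). The median was 0.40 over members and -0.02 over all genes. Col12a1, Col6a4, Itga8 and Itgb4 rose and Col5a3, Itga5 and Lama3 fell under each alternative, and the other 12 calls did not hold throughout. The counts were 8 higher and 3 lower without 2C::GFP+/SGC replicate 1, and 6 higher without its replicate 2. This comparison and the preceding one share the 2C::GFP+/SA libraries, and those against 2C::GFP+ share its libraries, so their values are given side by side only. RNA was measured in bulk, so fewer cells of a type and less RNA per cell cannot be told apart in any of these comparisons.

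**Figure D2:**
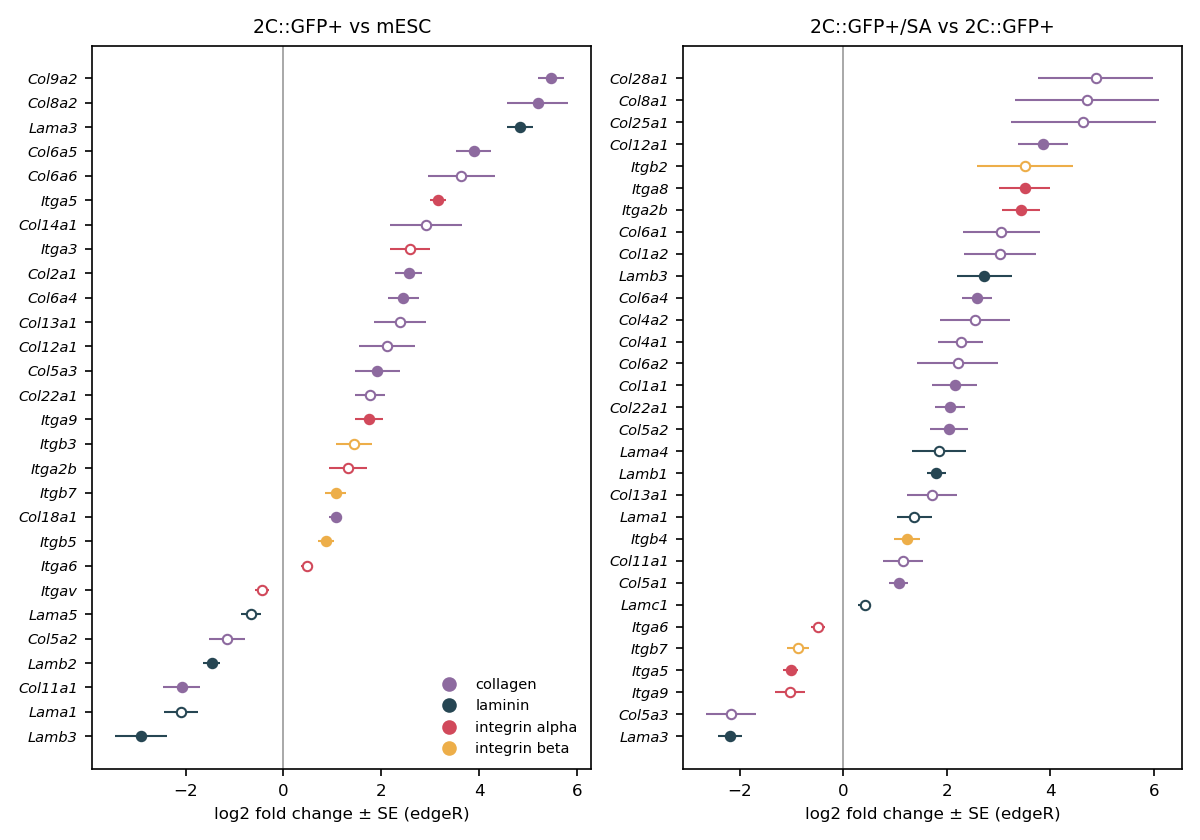
Log2 fold change ± SE (edgeR) of each member called in 2C::GFP+ against mESC (left, 28 members) and in 2C::GFP+/SA against 2C::GFP+ (right, 31 members), coloured by family. Filled points kept the call under each alternative analysis and open points lost it under at least 1, and Col9a2, Lama3 and Itga5 are among the filled points at the left.

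Fibrillar collagens were scarce. They were split in direction in 2C::GFP+ against mESC and mostly higher in 2C::GFP+/SA than in 2C::GFP+. The list holds 11 genes, of which 9 were tested. In 2C::GFP+ against mESC 2 rose (Col2a1, Col5a3) and 2 fell (Col11a1, Col5a2). In 2C::GFP+/SA against 2C::GFP+ 5 rose (Col1a1, Col1a2, Col5a1, Col5a2, Col11a1) and 1 fell (Col5a3), with a list median of 1.15. Against 2C::GFP+/SGC 2 rose (Col5a1, Col5a2) and 1 fell (Col5a3). In these comparisons, in order, 44.4%, 66.7% and 33.3% of those tested were called, against 24.3%, 28.7% and 16.1% of all genes tested. The summed level of the list was 14.3 and 16 TPM (mESC), 16.8 and 19.2 (2C::GFP+), 28.9 and 29.0 (2C::GFP+/SGC), then 25.4 and 31.3 (2C::GFP+/SA).

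Col5a1, the chain that starts fibril assembly together with Col5a2, measured 7.45 and 7.67 TPM (mESC), 5.31 and 6.30 (2C::GFP+), 7.82 and 8.13 (2C::GFP+/SGC), then 10.7 and 12.6 (2C::GFP+/SA). It was apart and highest in 2C::GFP+/SA, where it rose against 2C::GFP+ (1.064 ± 0.17, adjusted p = 0.000604) and against 2C::GFP+/SGC (0.71 ± 0.17, adjusted p = 0.0142). The second of these calls was lost without 2C::GFP+/SA replicate 1 (0.0533), without 2C::GFP+/SGC replicate 1 (0.0825) or replicate 2 (0.0793), with limma on log2(TPM + 0.1) (0.168) or with limma on log2(TPM + 1) (0.15), with the adjusted p in parentheses here and below. Its partner Col5a2 measured 1.00 and 1.19 TPM (mESC), 0.521 and 0.434 (2C::GFP+), 1.05 and 0.929 (2C::GFP+/SGC), then 1.94 and 1.88 (2C::GFP+/SA). Col5a2 was lowest in 2C::GFP+ and highest in 2C::GFP+/SA, with a log2 fold change of 2.03 ± 0.37, adjusted p = 0.00118 between them. Its rise against 2C::GFP+/SGC (log2 fold change 1.12, adjusted p = 0.0462) was lost in 9 of the 16 alternatives. Among these were limma on log2(TPM + 0.1) (0.234) and on log2(TPM + 1) (0.147), no low-count filter (0.0578) and a fit of only the 4 libraries compared (0.0615). Its fall against mESC (-1.15 ± 0.36, adjusted p = 0.0341) was lost without 2C::GFP+ replicate 1 (0.0785) or replicate 2 (0.183), without mESC replicate 1 (0.0797) or replicate 2 (0.119), with limma on log2(TPM + 0.1) (0.164) or with limma on log2(TPM + 1) (0.205).

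The third chain of type V collagen, Col5a3, ran the other way. It measured 1.33 and 0.34 TPM (mESC), 3.09 and 4.10 (2C::GFP+), 6.09 and 5.598 (2C::GFP+/SGC), then 0.677 and 0.855 (2C::GFP+/SA). The 2C::GFP+/SA libraries were apart from and below both other 2C::GFP+ groups: Col5a3 fell by 2.17 against 2C::GFP+ (SE 0.49, adjusted p = 0.00601) and by 2.78 against 2C::GFP+/SGC (SE 0.49, adjusted p = 0.00293) on the log2 scale. The first of these was lost without 2C::GFP+/SA replicate 1 (0.0542).

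The type I chains Col1a1 and Col1a2, the main collagen of bone and skin, were low throughout. Col1a1 measured 0.229 and 0.515 TPM (mESC), 0.68 and 0.825 (2C::GFP+), 2.25 and 1.36 (2C::GFP+/SGC), then 2.83 and 3.59 (2C::GFP+/SA). Its 2C::GFP+/SA libraries were the highest of the 8, and it rose against 2C::GFP+ (log2 fold change 2.15 ± 0.43, adjusted p = 0.00238). Col1a2 measured 0.168 and 0.701 TPM (mESC), 0.0702 and 0.235 (2C::GFP+), 0.374 and 0.358 (2C::GFP+/SGC), then 0.974 and 0.982 (2C::GFP+/SA), rose in the same comparison (3.02 ± 0.70, adjusted p = 0.00624) and lost the call without 2C::GFP+ replicate 1 (0.0978). Its log2 fold change was 2.23 without 2C::GFP+ replicate 1 and 3.80 without replicate 2. Col2a1, the cartilage collagen, measured 1.16 and 0.693 TPM (mESC), 5.79 and 5.77 (2C::GFP+), 8.54 and 10.3 (2C::GFP+/SGC), then 5.53 and 8.55 (2C::GFP+/SA). It was apart from mESC in each 2C::GFP+ group and rose 5.87-fold in untreated 2C::GFP+ (2.55 ± 0.27, adjusted p = 1.33e-05).

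Among the remaining fibrillar members, Col11a1 measured 1.95 and 4.23 TPM (mESC), 0.78 and 0.604 (2C::GFP+), 1.41 and 1.15 (2C::GFP+/SGC), then 1.63 and 1.30 (2C::GFP+/SA). It fell in 2C::GFP+ against mESC (-2.08 ± 0.38, adjusted p = 0.00136), and its rise in 2C::GFP+/SA against 2C::GFP+ (1.15 ± 0.38, adjusted p = 0.0352) was lost without 2C::GFP+/SA replicate 1 (0.232), without 2C::GFP+ replicate 1 (0.0836) or replicate 2 (0.168), with limma on log2(TPM + 0.1) (0.186) or with limma on log2(TPM + 1) (0.251). Col11a2 and Col27a1 were called in no comparison. The summed level of 14 fibroblast markers was 8.64 and 12.2 TPM (mESC), 21.6 and 22.3 (2C::GFP+), 28.6 and 29.4 (2C::GFP+/SGC), then 39.2 and 55.8 (2C::GFP+/SA). Of the 7 tested, 4 rose in 2C::GFP+ against mESC (Acta2, Mfap5, Thy1 and Twist1) and 2 (Twist1 and Thy1) in 2C::GFP+/SA against 2C::GFP+. Against 2C::GFP+/SGC 2 rose (Twist1 and Thy1) and 1 fell (Pdgfrb). In these comparisons, in order, 57.1%, 28.6% and 42.9% of those tested were called, against 24.3%, 28.7% and 16.1% of all genes tested. Thy1 reached 22.1 TPM, Twist1 19.2 TPM and Mfap5 11.1 TPM, while Postn, Lum, Fap and Prrx1 of the same list had at most 0.0256 TPM in any library. The part of such cells in these values was not tested.

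Type IV collagen was highest in 2C::GFP+/SA. The list holds 6 genes, of which 4 were tested. Of these, 2 rose in 2C::GFP+/SA against 2C::GFP+ (Col4a1 and Col4a2, list median 2.41) and 1 against 2C::GFP+/SGC (Col4a1). No member was called in 2C::GFP+ against mESC. In these comparisons, in order, 50%, 25% and 0% of those tested were called, against 28.7%, 16.1% and 24.3% of all genes tested. The summed level was 9.97 and 10.5 TPM (mESC), 18.0 and 32.6 (2C::GFP+), 27.1 and 39.1 (2C::GFP+/SGC), then 63.6 and 187 (2C::GFP+/SA), and most of it was Col4a1 and Col4a2.

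Col4a1 measured 6.74 and 6.79 TPM (mESC), 13.3 and 22.8 (2C::GFP+), 19.8 and 26.1 (2C::GFP+/SGC), then 45.0 and 128 (2C::GFP+/SA). The 2C::GFP+/SA libraries were apart and highest, and they differed from each other 2.84-fold. Col4a1 rose 4.81-fold against 2C::GFP+ (2.27 ± 0.44, adjusted p = 0.0142) and 4.03-fold against 2C::GFP+/SGC (2.01 ± 0.43, adjusted p = 0.0333). Without the higher 2C::GFP+/SA replicate 2 the log2 fold change was 1.60 against 2C::GFP+ and 1.34 against 2C::GFP+/SGC. That fit leaves 2C::GFP+/SA with 1 library, so the 2.84-fold difference between its libraries no longer enters the spread. The call against 2C::GFP+ was lost without 2C::GFP+/SGC replicate 2 (0.059), without 2C::GFP+ replicate 1 (0.0727) or replicate 2 (0.063) or without mESC replicate 2 (0.0688). The one against 2C::GFP+/SGC was lost without 2C::GFP+/SGC replicate 1 (0.142) or replicate 2 (0.194), without 2C::GFP+ replicate 2 (0.0712), without mESC replicate 1 (0.0604) or replicate 2 (0.126), with limma on log2(TPM + 0.1) (0.0527) or in a fit of only the 4 libraries compared (0.0894).

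Col4a2 measured 2.69 and 1.85 TPM (mESC), 4.11 and 8.90 (2C::GFP+), 6.26 and 11.7 (2C::GFP+/SGC), then 17.2 and 57.8 (2C::GFP+/SA), at a ratio of Col4a1 to Col4a2 between 2.21 and 3.66 in all 8 libraries. It rose 5.84-fold against 2C::GFP+ (2.55 ± 0.67, adjusted p = 0.0456). Without 2C::GFP+/SA replicate 2 the log2 fold change was 1.71. Its call was lost without 2C::GFP+/SA replicate 2 (0.0546), without 2C::GFP+/SGC replicate 2 (0.105), without 2C::GFP+ replicate 1 (0.159) or replicate 2 (0.127), without mESC replicate 1 (0.055) or replicate 2 (0.121), with no low-count filter (0.118) or in a fit of only the 4 libraries compared (0.0567). Against mESC, Col4a1 in untreated 2C::GFP+ was apart and above, but missed the threshold (1.38 ± 0.44, adjusted p = 0.0754), which it passed in 6 alternatives. These were a fit of only the 4 libraries compared (0.000815), DESeq2 (0.0191), the replicate block (0.0179) and a stricter filter on low counts (0.0472). The others were the fits without replicate 1 or replicate 2 of 2C::GFP+/SA, where the difference between those libraries no longer enters the spread. The type IV chains of specialised membranes were low: Col4a5 measured at most 1.83 TPM, and Col4a3, Col4a4 and Col4a6 at most 0.139 TPM, in any library.

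Markers of primitive, visceral and parietal endoderm were also highest in 2C::GFP+/SA. Summed over 16 genes they measured 24.5 and 36.7 TPM (mESC), 11.2 and 18.3 (2C::GFP+), 16.2 and 26.7 (2C::GFP+/SGC), then 41.7 and 96.3 (2C::GFP+/SA). The sum was lower in both 2C::GFP+ libraries than in mESC, where the summed type IV collagen was higher in 2C::GFP+, and 1 marker rose (Gata6) and 2 fell (Fst and Thbd) in that comparison. Of the 14 tested, 9 rose and 1 fell (Hnf4a) in 2C::GFP+/SA against 2C::GFP+, and 5 rose and 1 fell against 2C::GFP+/SGC. The share called was 71.4% against 28.7% of all genes tested, then 42.9% against 16.1%. In 2C::GFP+ against mESC it was 21.4% against 24.3%. Gata6 and Sox17, transcription factors that define this lineage, were among those that rose against 2C::GFP+. Gata6 measured 0.0356 and 0.0547 TPM (mESC), 0.682 and 1.53 (2C::GFP+), 0.916 and 2.09 (2C::GFP+/SGC), then 8.91 and 12.8 (2C::GFP+/SA). Sox17 measured 0.155 and 0 TPM (mESC), 0.222 and 1.22 (2C::GFP+), 0.994 and 2.39 (2C::GFP+/SGC), then 4.66 and 5.87 (2C::GFP+/SA). The TPM of 2C::GFP+/SA replicate 2 over that of replicate 1 was 2.84 for Col4a1, 3.37 for Col4a2 and 1.06 for Lamc1. The other members compared in this way had 2.62 (Itgb2), 2.48 (Lama1), 1.95 (Itga8), 1.88 (Col6a4), 1.74 (Lama5), 1.73 (Itgb4) and 1.72 (Lamb1). Of the 15 endoderm markers that gave this ratio, 10 had at least 1.5, up to 6.01 for Cubn, and 5 had less, among them Gata6 (1.44), Sox17 (1.26) and Foxa2 (0.927). Summed TPM was also higher in replicate 2 for integrins (374 and 459), integrin adhesion adaptors (526 and 703) and fibroblast markers (39.2 and 55.8). Of the lists summed, only the leukocyte integrin alpha chains were lower in replicate 2 (7.99 and 5.90). The ratio was not computed over all genes. The late endoderm markers Ttr and Apoa1 had at most 0.2 TPM in any library. The part of such cells in the rise of type IV collagen was not tested.

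**Figure D3:**
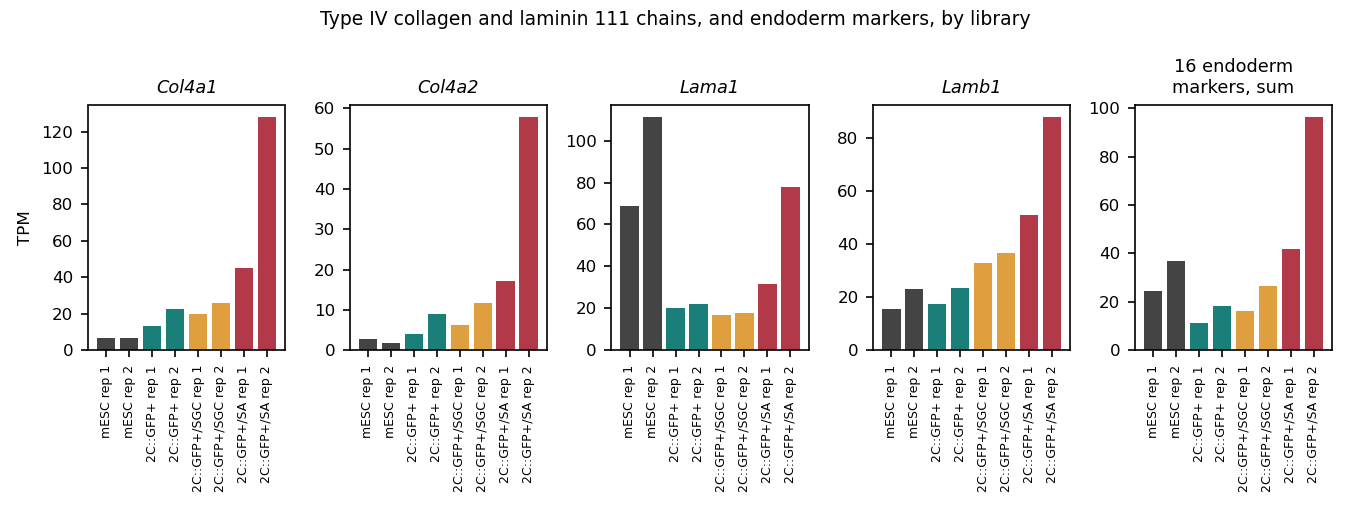
TPM by library of Col4a1, Col4a2, Lama1 and Lamb1 and of the sum of 16 endoderm markers, with bars coloured by group and each panel on its own axis from 0. All 5 panels are highest for replicate 2 of 2C::GFP+/SA except that of Lama1, where mESC replicate 2 is highest at 111.2 TPM.

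Collagens of the basement membrane zone outside type IV were led by Col18a1. It lay at chromosome 10, 77052178 to 77166548, and rose 2.09-fold in 2C::GFP+ against mESC (1.07 ± 0.14, adjusted p = 7.19e-05), with both libraries apart. No change was called against 2C::GFP+: the log2 fold change was -0.40 ± 0.13, adjusted p = 0.349, in 2C::GFP+/SGC and -0.08 ± 0.13, adjusted p = 0.714, in 2C::GFP+/SA. The anchoring fibril collagen Col7a1, Col15a1 and the hemidesmosome collagen Col17a1 had at most 1.86 TPM and were called in no comparison.

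Of the 23 other collagens, which include the microfibril, network, transmembrane and fibril-associated types, 20 were tested. In 2C::GFP+ against mESC 9 rose and 0 fell, with a list median of 2.42. Against untreated 2C::GFP+, 9 were higher and 0 lower in 2C::GFP+/SA (list median 1.62), and against 2C::GFP+/SGC 3 rose and 1 fell. In these comparisons, in order, 45%, 45% and 20% of the list were called, against 24.3%, 28.7% and 16.1% of all genes tested. The summed level of the list was 4.57 and 7.88 TPM (mESC), 43.2 and 47.5 (2C::GFP+), 71.3 and 71.1 (2C::GFP+/SGC), then 57.4 and 76.1 (2C::GFP+/SA).

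Col9a2, a chain of the fibril-associated type IX collagen of cartilage, had the largest rise among the members called in 2C::GFP+ against mESC. It measured 0.599 and 0.575 TPM (mESC), 29.2 and 24.1 (2C::GFP+), 45.0 and 37.5 (2C::GFP+/SGC), then 16.3 and 19.4 (2C::GFP+/SA). The mESC libraries were far below the other 6, and the rise in 2C::GFP+ was 5.47 ± 0.26, adjusted p = 1.4e-08. Col9a2 was lower in 2C::GFP+/SA than in 2C::GFP+/SGC (-1.05 ± 0.20, adjusted p = 0.00362), a call lost without 2C::GFP+/SGC replicate 1 (0.0595). The other type IX chains did not match that level: Col9a3 measured at most 3.67 TPM and Col9a1 at most 0.293 TPM.

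The Col6a4, Col6a5 and Col6a6 genes, which encode alternative type VI chains, lie side by side on chromosome 9 within 105687809 to 106096783. All 3 rose in 2C::GFP+ against mESC. Col6a5 measured 0.222 and 0.113 TPM (mESC), 2.24 and 3.63 (2C::GFP+), 4.13 and 4.42 (2C::GFP+/SGC), then 3.397 and 4.30 (2C::GFP+/SA) (log2 fold change 3.88 ± 0.36, adjusted p = 4.3e-06), with 4.69 without mESC replicate 1. Col6a6 had at most 0.702 TPM (3.63 ± 0.68, adjusted p = 0.00157), and its call was lost with limma on log2(TPM + 0.1) (0.0525) or with limma on log2(TPM + 1) (0.148). Col6a4 rose in 2C::GFP+ (2.44 ± 0.32, adjusted p = 8.66e-05) and again in 2C::GFP+/SA (2.58 ± 0.29, adjusted p = 3.98e-05), and measured 0.424 and 0.396 TPM (mESC), 2.17 and 2.44 (2C::GFP+), 3.86 and 2.26 (2C::GFP+/SGC), then 9.54 and 17.9 (2C::GFP+/SA). Its neighbour Col6a5 had 0.47 ± 0.30, adjusted p = 0.272 in the latter comparison. The classical type VI chains Col6a1 and Col6a2 had at most 1.12 TPM. Both rose in 2C::GFP+/SA against 2C::GFP+. The call of Col6a1 was lost without 2C::GFP+/SA replicate 1 (0.0962) or without 2C::GFP+ replicate 1 (0.0828). That of Col6a2 was lost without 2C::GFP+/SA replicate 1 (0.36), without 2C::GFP+/SGC replicate 1 (0.0626) or replicate 2 (0.057), without 2C::GFP+ replicate 1 (0.229) or replicate 2 (0.123), with DESeq2 (0.0532), with limma on log2(TPM + 0.1) (0.136) or with limma on log2(TPM + 1) (0.145).

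Transmembrane Col13a1, found at cell adhesions, measured 0.629 and 1.20 TPM (mESC), 2.42 and 6.92 (2C::GFP+), 5.30 and 10.4 (2C::GFP+/SGC), then 13.1 and 14.5 (2C::GFP+/SA). It rose in 2C::GFP+ against mESC (2.39 ± 0.53, adjusted p = 0.0102) and in 2C::GFP+/SA against 2C::GFP+ (1.71 ± 0.48, adjusted p = 0.0261), and the former call was lost without mESC replicate 1 (0.14). The latter was lost without 2C::GFP+/SA replicate 1 (0.0883) or replicate 2 (0.0885), without 2C::GFP+ replicate 1 (0.116) or without mESC replicate 2 (0.056). The rise against mESC was 2.98 without 2C::GFP+ replicate 1 and 1.56 without replicate 2, and the rise in 2C::GFP+/SA was 2.50 without 2C::GFP+ replicate 2. Col22a1, a collagen of tissue junctions, measured 0.312 and 0.387 TPM (mESC), 1.09 and 1.24 (2C::GFP+), 2.80 and 2.72 (2C::GFP+/SGC), then 3.71 and 5.91 (2C::GFP+/SA). It was apart in each step of that order up to 2C::GFP+/SA and rose against mESC (1.76 ± 0.31, adjusted p = 0.000949) and in 2C::GFP+/SA against 2C::GFP+ (2.06 ± 0.29, adjusted p = 0.000183). The former call was lost with limma on log2(TPM + 1) (0.146). Col12a1, which binds the surface of fibrils, measured 0.0183 and 0.0234 TPM (mESC), 0.0746 and 0.109 (2C::GFP+), 0.205 and 0.211 (2C::GFP+/SGC), then 1.07 and 1.40 (2C::GFP+/SA). It was apart and highest in 2C::GFP+/SA (3.86 ± 0.48, adjusted p = 8.11e-05). Col8a2, a network collagen of the eye's basement membranes, measured 0.0877 and 0 TPM (mESC), 2.11 and 3.38 (2C::GFP+), 2.59 and 3.64 (2C::GFP+/SGC), then 1.10 and 1.67 (2C::GFP+/SA) and rose in 2C::GFP+ against mESC (5.19 ± 0.62, adjusted p = 4.31e-05). Because mESC replicate 2 had 0 counts, that fold change rests on the 17 counts of mESC replicate 1, and without this replicate it has no estimate free of the prior count. Col8a1, Col25a1 and Col28a1 rose in 2C::GFP+/SA, and Col14a1 rose in 2C::GFP+ against mESC, and these 4 had at most 0.87 TPM in any library. The call of Col8a1 was lost without 2C::GFP+ replicate 2 (0.0809), with DESeq2 (0.0528), with limma on log2(TPM + 0.1) (0.104) or with limma on log2(TPM + 1) (0.236). That of Col25a1 was lost without 2C::GFP+ replicate 2 (0.0801), with limma on log2(TPM + 0.1) (0.223) or with limma on log2(TPM + 1) (0.451). That of Col28a1 was lost without 2C::GFP+ replicate 1 (0.113). That of Col14a1, which also had 0 counts in mESC replicate 2, was lost with limma on log2(TPM + 1) (0.0723).

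Laminin chains moved in both directions within the same comparisons. Summed over 11 genes they measured 655 and 743 TPM (mESC), 529.9 and 599 (2C::GFP+), 623 and 574 (2C::GFP+/SGC), then 665 and 838 (2C::GFP+/SA). In 2C::GFP+ against mESC 1 chain rose (Lama3) and 4 fell (Lama1, Lama5, Lamb2, Lamb3). Against 2C::GFP+, 5 rose in 2C::GFP+/SA (Lama1, Lama4, Lamb1, Lamb3, Lamc1) and 1 fell (Lama3), with a list median of 1.37, and against 2C::GFP+/SGC 4 rose (Lama1, Lamb1, Lamb3, Lamc1) and 1 fell (Lama3). In these comparisons, in order, 45.5%, 54.5% and 45.5% of the chains were called, against 24.3%, 28.7% and 16.1% of all genes tested.

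Lama1 is the alpha chain of the first laminin of the embryo. It lies at chromosome 17, 67697259 to 67822647 and measured 68.6 and 111.2 TPM (mESC), 20.0 and 21.9 (2C::GFP+), 16.6 and 17.6 (2C::GFP+/SGC), then 31.5 and 77.9 (2C::GFP+/SA). The mESC libraries were apart from and above untreated 2C::GFP+, where Lama1 was 4.26-fold lower (-2.09 ± 0.34, adjusted p = 0.0058), and the call was lost without 2C::GFP+ replicate 1 (0.0502) or replicate 2 (0.0985). In 2C::GFP+/SA it was above untreated 2C::GFP+ (1.37 ± 0.33, adjusted p = 0.0249) and above 2C::GFP+/SGC (1.77 ± 0.34, adjusted p = 0.0175). The first of these was lost without 2C::GFP+/SGC replicate 2 (0.0875), without 2C::GFP+ replicate 1 (0.122) or replicate 2 (0.183) or with limma on log2(TPM + 0.1) (0.0639). The second was lost without 2C::GFP+/SGC replicate 1 (0.0894) or replicate 2 (0.16) or without 2C::GFP+ replicate 2 (0.0848). Without 2C::GFP+/SA replicate 2 the log2 fold changes were 0.84 and 1.24, in a fit that leaves 2C::GFP+/SA with 1 library.

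Lama3, the alpha chain of the laminin of epidermal anchorage, ran opposite to Lama1. It measured 0.384 and 0.579 TPM (mESC), 10.2 and 16.2 (2C::GFP+), 9.88 and 13.3 (2C::GFP+/SGC), then 2.41 and 3.10 (2C::GFP+/SA). The mESC libraries were near 0, untreated 2C::GFP+ and 2C::GFP+/SGC overlapped, and 2C::GFP+/SA lay between. Lama3 rose in 2C::GFP+ against mESC (4.83 ± 0.27, adjusted p = 4.75e-08) and fell in 2C::GFP+/SA by 2.20 against 2C::GFP+ (SE 0.23, adjusted p = 2.48e-05) and by 1.91 against 2C::GFP+/SGC (SE 0.23, adjusted p = 0.00016). All 3 calls held under each alternative. Lamb3, the beta chain that assembles with it, measured 1.31 and 1.45 TPM (mESC), 0.204 and 0.126 (2C::GFP+), 0.445 and 0.299 (2C::GFP+/SGC), then 0.825 and 1.64 (2C::GFP+/SA), and fell in 2C::GFP+ against mESC (-2.91 ± 0.53, adjusted p = 0.00117) and rose in 2C::GFP+/SA against 2C::GFP+ (2.72 ± 0.53, adjusted p = 0.00192). Without 2C::GFP+ replicate 1 the log2 fold changes were -3.51 and 3.34.

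Lama5, the most abundant alpha chain, measured 149.5 and 153 TPM (mESC), 73.3 and 121 (2C::GFP+), 138 and 117 (2C::GFP+/SGC), then 82.2 and 143 (2C::GFP+/SA). It was below mESC in 2C::GFP+ (-0.66 ± 0.20, adjusted p = 0.0367), and the 3 groups of 2C::GFP+ genotype overlapped. That call was lost without 2C::GFP+/SGC replicate 1 (0.0513), without 2C::GFP+ replicate 1 (0.213), without mESC replicate 1 (0.164) or replicate 2 (0.0791), with edgeR with RLE normalization (0.0627), with limma on log2(TPM + 0.1) (0.17), with limma on log2(TPM + 1) (0.163) or with a stricter low-count filter (0.0501). Among alpha chains, Lama5 took 57.7% to 83.6% of summed TPM in all libraries. The share of Lama1 was 31.4 and 42.0% (mESC), 19.3 and 13.8 (2C::GFP+), 10.0 and 11.8 (2C::GFP+/SGC), then 26.9 and 34.7 (2C::GFP+/SA). Lama3 took 0.176 and 0.219% (mESC), 9.81 and 10.1 (2C::GFP+), 5.96 and 8.88 (2C::GFP+/SGC), then 2.06 and 1.38 (2C::GFP+/SA). Lama2 took at most 0.264% and Lama4 at most 0.652% in any library. The rise of Lama4 in 2C::GFP+/SA (1.84 ± 0.53, adjusted p = 0.0183) was lost without 2C::GFP+/SA replicate 1 (0.118), without 2C::GFP+ replicate 1 (0.102) or replicate 2 (0.0819), with limma on log2(TPM + 0.1) (0.108) or with limma on log2(TPM + 1) (0.0597).

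The beta chains exchanged places. Lamb1 measured 15.6 and 23.2 TPM (mESC), 17.4 and 23.5 (2C::GFP+), 33.1 and 36.6 (2C::GFP+/SGC), then 51.04 and 88.0 (2C::GFP+/SA), and Lamb2, its alternative in mature basement membranes, measured 57.9 and 64.3 TPM (mESC), 22.1 and 22.1 (2C::GFP+), 28.6 and 20.1 (2C::GFP+/SGC), then 14.9 and 16.3 (2C::GFP+/SA). Lamb2 fell by 1.47 in 2C::GFP+ against mESC (SE 0.17, adjusted p = 3.58e-05), while Lamb1 had 0.07 ± 0.18, adjusted p = 0.813. Lamb1 in 2C::GFP+/SA was 3.47-fold higher against 2C::GFP+ (1.80 ± 0.19, adjusted p = 3.5e-05) and 2.18-fold against 2C::GFP+/SGC (1.12 ± 0.18, adjusted p = 0.00161), and Lamb2 had -0.44 ± 0.17, adjusted p = 0.0694, and -0.48 ± 0.17, adjusted p = 0.0722. The share of Lamb1 in beta chain TPM was 20.8 and 26.1% (mESC), 43.9 and 51.4 (2C::GFP+), 53.3 and 64.2 (2C::GFP+/SGC), then 76.5 and 83.1 (2C::GFP+/SA). It was apart between each pair of groups taken in that order, and Lamb1 exceeded Lamb2 in both libraries of either treated group. The rise against 2C::GFP+ held under each alternative, and the one against 2C::GFP+/SGC was lost with limma on log2(TPM + 0.1) (0.067) or with limma on log2(TPM + 1) (0.0534).

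The gamma chain Lamc1 was above 2C::GFP+ and 2C::GFP+/SGC in 2C::GFP+/SA, by 0.41 ± 0.13, adjusted p = 0.0314, and 0.55 ± 0.13, adjusted p = 0.0125. The first call was lost without 2C::GFP+/SA replicate 1 (0.0948), without 2C::GFP+/SGC replicate 2 (0.0588), without 2C::GFP+ replicate 1 (0.0732) or replicate 2 (0.168), without mESC replicate 2 (0.0524) or in a fit of only the 4 libraries compared (0.09). The second was lost without 2C::GFP+/SGC replicate 1 (0.0595) or replicate 2 (0.147) or with limma on log2(TPM + 0.1) (0.0523). Lamc3 had at most 0.206 TPM.

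**Figure D4:**
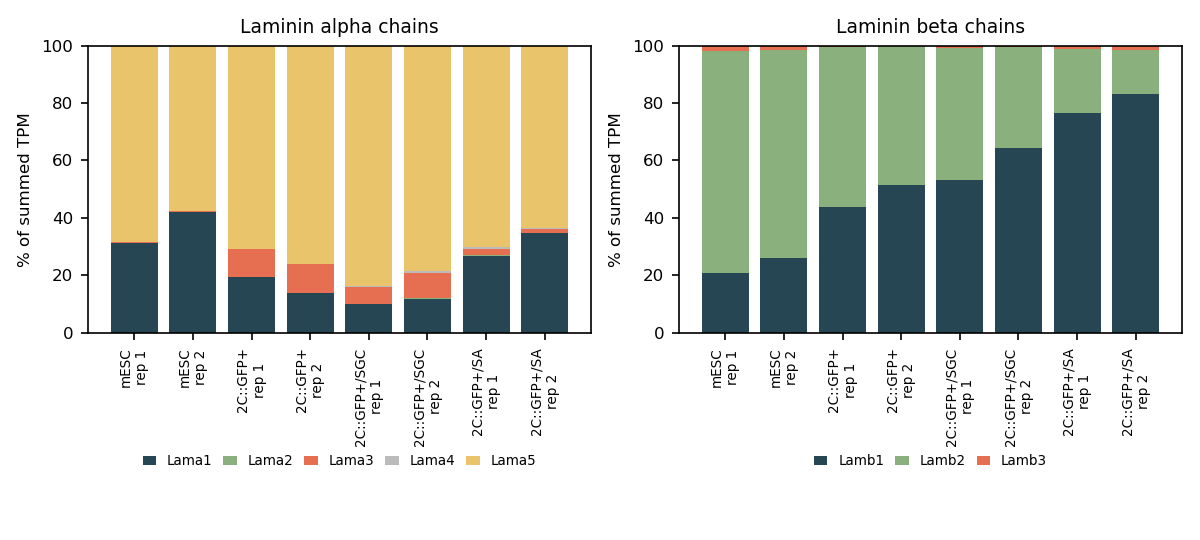
Share of each chain in the summed TPM of the laminin alpha chains (left) and beta chains (right), 1 stacked bar per library, each bar adding to 100%. Lama3 takes 9.81% and 10.1% of alpha chain TPM in 2C::GFP+, and Lamb1 goes from 20.8% and 26.1% of beta chain TPM in mESC to 76.5% and 83.1% in 2C::GFP+/SA.

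The most abundant integrin alpha chain was the laminin receptor chain Itga6 in mESC and the fibronectin receptor chain Itga5 in untreated 2C::GFP+. Itga5 lies at chromosome 15, 103344286 to 103366763 and measured 15.2 and 14.2 TPM (mESC), 114 and 153 (2C::GFP+), 131 and 149 (2C::GFP+/SGC), then 50.6 and 78.0 (2C::GFP+/SA). It rose 8.93-fold in 2C::GFP+ against mESC (3.16 ± 0.16, adjusted p = 2.41e-08), and 2C::GFP+/SGC overlapped 2C::GFP+. In 2C::GFP+/SA it was apart and below both, falling by 1.02 against 2C::GFP+ (SE 0.15, adjusted p = 0.000239) and by 0.99 against 2C::GFP+/SGC (SE 0.15, adjusted p = 0.000682). All 3 calls held under each alternative. The share of Itga5 in integrin alpha TPM was 14.7 and 11.5% (mESC), 40.8 and 51.2 (2C::GFP+), 44.9 and 53.2 (2C::GFP+/SGC), then 28.3 and 34.4 (2C::GFP+/SA), and that of Itga6 was 53.9 and 55.3% (mESC), 30.9 and 28.9 (2C::GFP+), 27.6 and 26.5 (2C::GFP+/SGC), then 31.3 and 27.4 (2C::GFP+/SA).

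The laminin-binding chains Itga3, Itga6 and Itga7 differed in level and in change. Itga3 measured 4.21 and 7.79 TPM (mESC), 41.5 and 26.8 (2C::GFP+), 34.4 and 20.6 (2C::GFP+/SGC), then 32.1 and 42.3 (2C::GFP+/SA). It was apart from mESC in the 2C::GFP+ groups and rose 5.999-fold in 2C::GFP+ (2.58 ± 0.41, adjusted p = 0.00491), a call lost without 2C::GFP+/SA replicate 2 (0.0579). Itga6 measured 55.5 and 68.3 TPM (mESC), 86.5 and 86.1 (2C::GFP+), 80.4 and 74.2 (2C::GFP+/SGC), then 55.9 and 62.2 (2C::GFP+/SA). It rose in 2C::GFP+ (0.48 ± 0.13, adjusted p = 0.0154) and fell in 2C::GFP+/SA against 2C::GFP+ (-0.49 ± 0.13, adjusted p = 0.012), and the first call was lost without 2C::GFP+ replicate 1 (0.0965), without mESC replicate 1 (0.13), with limma on log2(TPM + 0.1) (0.0648) or with limma on log2(TPM + 1) (0.072). The second was lost without 2C::GFP+/SA replicate 2 (0.0769) or without 2C::GFP+ replicate 1 (0.111). Itga7, the muscle laminin receptor chain, had at most 1.17 TPM and no call.

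Of the 6 chains that bind RGD motifs, or related ligands such as tenascin and VCAM-1, 3 rose and 1 fell in 2C::GFP+ against mESC, and 2 rose and 2 fell in 2C::GFP+/SA against 2C::GFP+. Both are 66.7% called, against 24.3% and 28.7% of all genes tested. Itga8, the receptor chain for nephronectin, measured 0.302 and 0.145 TPM (mESC), 0.373 and 0.283 (2C::GFP+), 0.813 and 0.537 (2C::GFP+/SGC), then 2.67 and 5.19 (2C::GFP+/SA). It was apart and highest in 2C::GFP+/SA, with 3.50 ± 0.49, adjusted p = 0.000171 against 2C::GFP+ and 2.59 ± 0.46, adjusted p = 0.00214 against 2C::GFP+/SGC. Itga2b, the platelet and megakaryocyte chain, measured 0.319 and 0.391 TPM (mESC), 0.785 and 0.992 (2C::GFP+), 3.85 and 2.59 (2C::GFP+/SGC), then 9.87 and 7.73 (2C::GFP+/SA). Its groups did not overlap in that order, and it rose in 2C::GFP+/SA against 2C::GFP+ (3.43 ± 0.37, adjusted p = 2.56e-05) and against 2C::GFP+/SGC (1.62 ± 0.33, adjusted p = 0.00503). The latter was lost without 2C::GFP+/SA replicate 1 (0.0647) or with limma on log2(TPM + 0.1) (0.0529). The smaller rise of Itga2b in 2C::GFP+ against mESC (1.32 ± 0.39, adjusted p = 0.0225) was lost without 2C::GFP+ replicate 1 (0.0715) or replicate 2 (0.0808), without mESC replicate 1 (0.166), with limma on log2(TPM + 0.1) (0.105), with limma on log2(TPM + 1) (0.308) or in a fit of only the 4 libraries compared (0.0787).

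Itga9 measured 3.26 and 1.99 TPM (mESC), 9.87 and 8.18 (2C::GFP+), 8.69 and 6.37 (2C::GFP+/SGC), then 3.603 and 5.12 (2C::GFP+/SA). It was higher in 2C::GFP+ than in mESC (1.74 ± 0.29, adjusted p = 0.000668) and lower in 2C::GFP+/SA than in 2C::GFP+ (-1.04 ± 0.28, adjusted p = 0.0151), and the latter call was lost without 2C::GFP+/SA replicate 1 (0.0845), without 2C::GFP+ replicate 1 (0.15) or with limma on log2(TPM + 0.1) (0.0585). Itgav, the vitronectin receptor chain, measured 12.9 to 20.2 TPM. Its fall in 2C::GFP+ (-0.44 ± 0.15, adjusted p = 0.0474) was lost without 2C::GFP+/SGC replicate 1 (0.0527), without 2C::GFP+ replicate 1 (0.091) or replicate 2 (0.215), without mESC replicate 2 (0.346), with DESeq2 (0.0562), with limma on log2(TPM + 0.1) (0.222) or with limma on log2(TPM + 1) (0.236). Itga4 had at most 0.456 TPM and no call.

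No collagen-binding alpha chain was called. Itga1, Itga2 and Itga11 had at most 0.358 TPM, and Itga10 measured 0.947 and 0.857 TPM (mESC), 1.56 and 2.17 (2C::GFP+), 3.16 and 1.34 (2C::GFP+/SGC), then 1.90 and 2.67 (2C::GFP+/SA), with 33.5% of its exonic bases shared with another annotated gene. The leukocyte chains also had no call. Itgal measured 4.01 to 10.5 TPM and Itgae 0.739 to 2.83 TPM. Itgam had at most 0.712 TPM and shares 68.7% of its exonic bases with another gene, and Itgax and Itgad had at most 0.0834 TPM.

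Among the beta chains 3 of 6 tested rose in 2C::GFP+ against mESC (Itgb3, Itgb5 and Itgb7), and 2 rose (Itgb2 and Itgb4) and 1 fell (Itgb7) in 2C::GFP+/SA against 2C::GFP+. Both are 50% called, against 24.3% and 28.7% of all genes tested. Itgb1 had no call, with 0.19 ± 0.12, adjusted p = 0.278 in 2C::GFP+ against mESC and -0.11 ± 0.12, adjusted p = 0.563 in 2C::GFP+/SA against 2C::GFP+. Itgb5, a partner of Itgav, measured 20.7 and 25.7 TPM (mESC), 42.2 and 42.0 (2C::GFP+), 37.5 and 33.3 (2C::GFP+/SGC), then 32.0 and 41.8 (2C::GFP+/SA), with mESC apart and below the rest (0.87 ± 0.16, adjusted p = 0.00121). Itgb7, known from lymphocytes as the partner of Itga4 and Itgae, measured 19.2 and 18.0 TPM (mESC), 41.8 and 36.5 (2C::GFP+), 41.3 and 28.1 (2C::GFP+/SGC), then 18.7 and 22.6 (2C::GFP+/SA). It rose in 2C::GFP+ (1.07 ± 0.21, adjusted p = 0.00245) and was lower in 2C::GFP+/SA (-0.88 ± 0.21, adjusted p = 0.00753), a call lost without 2C::GFP+ replicate 1 (0.0997).

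Itgb4, the partner of Itga6 in the hemidesmosome, measured 5.65 and 6.39 TPM (mESC), 6.77 and 5.04 (2C::GFP+), 6.72 and 4.66 (2C::GFP+/SGC), then 10.3 and 17.8 (2C::GFP+/SA). The 2C::GFP+/SA libraries were apart from and above the other 6, with 1.23 ± 0.26, adjusted p = 0.00304 against 2C::GFP+ and 1.40 ± 0.26, adjusted p = 0.00275 against 2C::GFP+/SGC. Itgb3 measured 1.19 and 1.33 TPM (mESC), 3.73 and 2.96 (2C::GFP+), 6.07 and 4.28 (2C::GFP+/SGC), then 2.08 and 1.41 (2C::GFP+/SA). It rose in 2C::GFP+ against mESC (1.44 ± 0.36, adjusted p = 0.0105) and was lower in 2C::GFP+/SA than in 2C::GFP+/SGC (-1.33 ± 0.36, adjusted p = 0.0229). The former was lost without 2C::GFP+ replicate 1 (0.101), without mESC replicate 1 (0.0779) or with limma on log2(TPM + 1) (0.0556). The latter was lost without 2C::GFP+/SA replicate 2 (0.114), without 2C::GFP+/SGC replicate 1 (0.204) or in a fit of only the 4 libraries compared (0.0587).

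Itgb2, the beta chain of leukocytes, measured 0.114 and 0.117 TPM (mESC), 0.139 and 0.136 (2C::GFP+), 0.266 and 0 (2C::GFP+/SGC), then 0.935 and 2.45 (2C::GFP+/SA). It rose in 2C::GFP+/SA against 2C::GFP+ (3.51 ± 0.94, adjusted p = 0.0125), a call lost without 2C::GFP+ replicate 1 (0.109). It also rose against 2C::GFP+/SGC (3.18 ± 0.89, adjusted p = 0.0271), a call lost without 2C::GFP+/SA replicate 1 (0.0502) or replicate 2 (0.0906), without 2C::GFP+/SGC replicate 2 (0.118) or in a fit of only the 4 libraries compared (0.053). Because 2C::GFP+/SGC replicate 2 had 0 counts, the latter fold change rests on the 32 counts of its replicate 1. The summed TPM of 10 macrophage and leukocyte markers was 214 and 191 TPM (mESC), 229.8 and 208 (2C::GFP+), 189.8 and 129 (2C::GFP+/SGC), then 169 and 209 (2C::GFP+/SA), led by Laptm5 and Cd68. Of the 5 tested, 2 rose in 2C::GFP+ against mESC (Cd14 and Cd68), or 40% against 24.3% of all genes tested. In 2C::GFP+/SA against 2C::GFP+ edgeR called 0 of the 5, against 28.7% of all genes tested. An unadjusted p under 0.05 by edgeR was reached by 0 of the 5 and by 8152 of all 20608 genes tested. Ptprc, Adgre1, Tyrobp and Csf1r had at most 0.024 TPM in any library. The part of such cells in the values of Itgb2 was not tested.

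Genes that fold, modify and cross-link collagen were taken from a list of 28, all tested. In 2C::GFP+ against mESC 10 rose and 2 fell, and in 2C::GFP+/SA against 2C::GFP+ 5 rose and 5 fell. Those called were 42.9% in the former, against 24.3% of all genes tested, and 35.7% in the latter, against 28.7%. P4ha2, a collagen prolyl hydroxylase subunit, measured 1.85 and 2.05 TPM (mESC), 8.96 and 10.4 (2C::GFP+), 51.6 and 28.5 (2C::GFP+/SGC), then 197 and 106 (2C::GFP+/SA). It was apart between each pair of groups in that order and rose 17.03-fold in 2C::GFP+/SA against 2C::GFP+ (4.09 ± 0.54, adjusted p = 0.0052), a call lost without 2C::GFP+ replicate 2 (0.0856). Without 2C::GFP+/SA replicate 1 its log2 fold change was 3.37. Its partner P4hb measured 452 to 802 TPM. Plod2, a lysyl hydroxylase, rose as well (1.03 ± 0.20, adjusted p = 0.00203), a call lost with limma on log2(TPM + 0.1) (0.0526). P3h4, part of a collagen lysyl hydroxylation complex, measured 3.38 and 6.78 TPM (mESC), 21.2 and 20.6 (2C::GFP+), 15.5 and 13.8 (2C::GFP+/SGC), then 5.20 and 5.86 (2C::GFP+/SA), rising in 2C::GFP+ (2.11 ± 0.32, adjusted p = 0.000296) and falling in 2C::GFP+/SA (-1.86 ± 0.32, adjusted p = 0.000732). Loxl1, which cross-links elastin and collagen, rose in 2C::GFP+ against mESC (4.17 ± 0.56, adjusted p = 0.000117), and Pcolce2, an enhancer of collagen processing, fell (-1.66 ± 0.18, adjusted p = 1.37e-05).

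Of 17 other basement membrane and matrix partners, 16 were tested, with 3 higher and 4 lower in 2C::GFP+ against mESC, and 5 higher and 3 lower in 2C::GFP+/SA against 2C::GFP+. The share called was 43.8% against 24.3% of all genes tested, then 50% against 28.7%. Fn1, the fibronectin bound by Itga5, measured 673 and 871 TPM (mESC), 383 and 487 (2C::GFP+), 469 and 404 (2C::GFP+/SGC), then 243 and 303 (2C::GFP+/SA). It fell in 2C::GFP+ against mESC (-0.83 ± 0.14, adjusted p = 0.000803) and in 2C::GFP+/SA against 2C::GFP+ (-0.62 ± 0.14, adjusted p = 0.00534). Nid1, which bridges laminin and type IV collagen, measured 149 and 175 TPM (mESC), 99.3 and 98.6 (2C::GFP+), 87.0 and 68.0 (2C::GFP+/SGC), then 37.0 and 39.7 (2C::GFP+/SA). It fell in the same comparisons (-0.71 ± 0.15, adjusted p = 0.00316, and -1.31 ± 0.15, adjusted p = 4.23e-05). Ddr2, a collagen-binding receptor kinase, measured 0.488 and 0.442 TPM (mESC), 2.73 and 2.74 (2C::GFP+), 8.82 and 5.18 (2C::GFP+/SGC), then 32.6 and 20.9 (2C::GFP+/SA), apart between each pair of groups in that order, and rose in 2C::GFP+/SA against 2C::GFP+ (3.38 ± 0.37, adjusted p = 0.000303). Npnt, the ligand of Itga8, rose in the latter comparison (1.29 ± 0.29, adjusted p = 0.00463), a call lost without 2C::GFP+ replicate 1 (0.0506).

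The adaptors that link integrins to actin were mostly lower in 2C::GFP+/SA. Of 18 listed, 17 were tested. Of these, 6 rose and 1 fell in 2C::GFP+ against mESC, and 1 rose and 11 fell in 2C::GFP+/SA against 2C::GFP+, with a list median of -0.44. In the former 41.2% were called, against 24.3% of all genes tested, and in the latter 70.6% were, against 28.7%. Src, a kinase of focal adhesions, measured 76.6 and 81.3 TPM (mESC), 44.0 and 45.7 (2C::GFP+), 41.6 and 33.9 (2C::GFP+/SGC), then 8.91 and 15.2 (2C::GFP+/SA) and had -1.90 ± 0.17, adjusted p = 9.79e-06 in the latter comparison. Parvb, which joins integrin-linked kinase to actin, fell (-1.21 ± 0.16, adjusted p = 0.000139), and Zyx, a protein of mature adhesions, rose (1.02 ± 0.24, adjusted p = 0.0063), a call lost without 2C::GFP+/SA replicate 2 (0.0575), with limma on log2(TPM + 0.1) (0.0629) or with limma on log2(TPM + 1) (0.0586). Bcar1, a Src substrate, rose in 2C::GFP+ against mESC (1.26 ± 0.17, adjusted p = 0.000104).

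Matrix metalloproteinases and their inhibitors were higher in 6 and lower in 0 of 9 tested in 2C::GFP+ against mESC, and higher in 0 and lower in 2 in 2C::GFP+/SA against 2C::GFP+. The share called was 66.7% against 24.3% of all genes tested, then 22.2% against 28.7%. Mmp9, a gelatinase that cleaves type IV collagen, measured 0.223 and 0.201 TPM (mESC), 1.83 and 2.35 (2C::GFP+), 2.42 and 1.89 (2C::GFP+/SGC), then 2.31 and 4.07 (2C::GFP+/SA) and rose in 2C::GFP+ (3.21 ± 0.49, adjusted p = 0.00034). Timp1, a secreted inhibitor, measured 132 and 126 TPM (mESC), 91.7 and 77.6 (2C::GFP+), 73.8 and 53.2 (2C::GFP+/SGC), then 41.7 and 38.7 (2C::GFP+/SA) and fell in 2C::GFP+/SA against 2C::GFP+ (adjusted p = 0.00535), a call lost without 2C::GFP+ replicate 1 (0.0832). In 2C::GFP+/SGC against 2C::GFP+, edgeR called 0 of the 70 tested genes of the 4 pathway lists, where 0% of all genes tested were called. Of the 70, 13 had an unadjusted p under 0.05 by edgeR, against 2037 of all 20608 genes tested.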

How the data were processed

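The deposited tables hold raw read counts per gene and TPM per gene for 8 libraries of total RNA extracted with Trizol and selected for polyadenylated transcripts, per the labels' protocols. Per the submitters' processing notes, FastQC 0.11.9, Trim Galore 0.6.5, STAR 2.7.4a, featureCounts 2.0.0 and the build mm10/GRCm38 were used. For the annotation release, strand setting and multi-mapping reads, nothing is given in the sources used here. As whole numbers without normalization the authors deposited the counts, and the authors' TPM values are already scaled to gene length and library size. Without a stated strand setting, reads of overlapping genes cannot be told apart, and 3 members shared over 10% of their exonic bases with another gene.

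Counts were tested with edgeR 4.0.16 in R 4.3.3 (TMM normalization, filterByExpr, robust quasi-likelihood fit, 1 term per group over 8 libraries, 4 residual degrees of freedom), with Benjamini-Hochberg adjustment over 20608 genes. SE is the log2 fold change divided by the root of its F statistic. With 2 libraries against 2, an exact permutation test of a single gene cannot go below p = 0.333, so only the fit across genes was used. The fit was tested on simulated counts with the same spread set for each gene. For 2C::GFP+/SA against 2C::GFP+ it called 27 of 100 simulated 2-fold changes and 99 of 100 simulated 4-fold changes. A gene without a call may therefore still differ by a small fold. Alternatives were DESeq2 1.42.0, limma 3.58.1 on log2(TPM + 1) and log2(TPM + 0.1), RLE normalization, no low-count filter and a stricter one, the 4 libraries compared alone, a replicate block, and each library left out. Members named were up to 3 called per list and direction, by size of change, and members of a set list eligible whatever their values. From each pathway list up to 3 called genes in the more frequent direction and 1 in the other were named, by smallest adjusted p. Others were named to account for counts or levels. The values of 1 laminin chain gene are not reported here. Members and lists were chosen with earlier results of these data known. Promoter windows come from RefSeq (GRCm38.p6) and coordinates from GENCODE M21 (GRCm38).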

Additional observations from a re-analysis of the deposited data

How the results depend on the processing

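Among the named genes, 105 results were called, and 51 of these kept the call under each of the 16 alternatives that gave a value. Of 73 results not called, 61 stayed so, and 0 results reversed. The setting that ended most calls was limma on log2(TPM + 0.1), with 29, followed by the fit without 2C::GFP+ replicate 1, with 24. The members lower in 2C::GFP+ against mESC numbered 4 with limma on log2(TPM + 1) and 4 on log2(TPM + 0.1), and 4 to 7 with a library left out, against 7. The members higher in 2C::GFP+/SGC against 2C::GFP+ numbered 2 with DESeq2, 2 in a fit of only the 4 libraries compared, 2 without a filter on low counts and 0 to 2 with a library left out, against 0. Those higher in 2C::GFP+/SA against 2C::GFP+ numbered 12 to 24 with a library left out, against 25, and those lower 3 to 7, against 6. Those higher in 2C::GFP+/SA against 2C::GFP+/SGC numbered 6 with limma on log2(TPM + 0.1) and 6 to 14 with a library left out, against 14, and those lower 3 to 7, against 5. The cause was not tested, though a left-out library leaves its group with 1, assumed to vary like the others. The shallower replicates 2, at 12299931 to 19544870 counts, limit what can be called of low genes.

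Replicate numbers are shared across groups, but the labels do not say that a number marks a shared culture or day. The differences between replicates 1 and 2 correlated between groups with r from 0.041 to 0.142 over genes. With the replicate block, the members higher in 2C::GFP+/SGC against 2C::GFP+ numbered 3 (Itga2b, adjusted p = 0.0126, Lamb1, 0.0121, and Col22a1, 0.0495, by edgeR). Of the named results, 174 stayed on their side of the threshold under the block, 4 gained a call and 0 lost one.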

Other observations

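Ilk, the integrin-linked kinase gene, stood at 0 to 0.11 TPM in the 8 libraries, while its partners in the same adhesion complex were present. In the GENCODE M21 annotation 89.7% of its exonic bases are shared with other genes. The part of that overlap in its level was not tested.

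The summed level of trophoblast markers over 9 genes was 68.9 and 80.8 TPM (mESC), 46.7 and 50.04 (2C::GFP+), 62.9 and 74.0 (2C::GFP+/SGC), then 31.9 and 40.4 (2C::GFP+/SA). It was lowest in both libraries of 2C::GFP+/SA. Of the 8 tested, edgeR called 0 in 2C::GFP+/SA against 2C::GFP+, where 5 had a log2 fold change above 0 and the median was 0.15. Against 2C::GFP+/SGC 1 fell (Tfap2c), or 12.5% against 16.1% of all genes tested. Of 10 embryonic stem cell markers, 1 rose (Tdgf1) and 6 fell (Esrrb, Lin28a, Pou5f1, Sox2, Utf1 and Zfp42) in 2C::GFP+/SA against 2C::GFP+ by edgeR. This was 70% called, against 28.7% of all genes tested.

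Several members lie next to each other in the genome. Besides Col4a1 and Col4a2, the gene pair Col4a4 and Col4a3 starts head to head with 71 bases between, and Col4a6 and Col4a5 with 1308 bases between.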
